A study of Caenorhabditis elegans with 2 samples.

Results

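The one-gene promoter peaks were 680 ChIP-seq peaks of the zinc finger protein ZNF-207 whose summits lay in the promoter window of a single protein-coding gene of Caenorhabditis elegans. They belonged to 646 genes, and 612 of these had 1 such peak while 34 had 2. They were chosen by signal and position from the peak list made from both replicates together. Of the 3000 nuclear peaks of highest signal, a peak was kept if its summit lay between 500 bp upstream and 200 bp downstream of the outermost start of exactly 1 protein-coding gene. It was dropped if the summit lay between 2 divergent starts at most 1000 bp apart, or within 200 bp of a tRNA, snoRNA or snRNA gene. The peaks kept made up 22.7% of the 3000 (95% Wilson interval 21.2 to 24.2, which covers the counting of peaks only). Signal and position are therefore given below as a description.

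The animals were young adult hermaphrodites of strain xtl1186, from a stable transgenic line, collected 50 h after synchronization as starved L1 larvae, and all carried ZNF-207 (gene znf-207, B0035.1) fused at its C terminus to GFP and FLAG. Chromatin of whole organisms was sonicated and precipitated with an anti-GFP antibody, per the sample descriptions, while the antibody field of the labels names B0035.1 itself. The signal of all tissues was mixed. There was 1 group of 2 biological replicates, and no control was analysed here. The pooled list held 30000 peaks, of which 29980 were nuclear, replicate 1 held 30000 peaks and replicate 2 held 25036. The lists carry no read counts, so sequencing depth is unknown.

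A promoter is the stretch of DNA next to a gene's start where the transcription machinery assembles, and a gene with a promoter of its own can be regulated apart from its neighbours. In C. elegans many genes lie close behind another gene on the same strand, often in operons whose genes are transcribed together from 1 promoter, and many transcripts receive a spliced leader, so that an annotated start can lie downstream of the place where transcription begins. ZNF-207 has a human counterpart that binds microtubules and a spindle checkpoint protein.

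The sequences under the strongest summits are shown because several of them share short words rich in C and G, which are counted further on. Each runs from 50 bp before to 50 bp after the summit, on the strand of the gene, from the WBcel235 genome (ce11). Capitals mark matches, on either strand, to any of 6 words that were chosen after the values were seen. These are GACGCA and, of the same length, ACGCGC, and the longer AAACGCGC, CTGCGTCTC, GCGCCAGCA and AAACACGC. The sequences shown were not drawn from every chromosome. Within this limit, the first 4 are the strongest that lie wholly outside annotated exons. The peak of kin-14 (signal 297) was stronger than that of cox-5A (247). It is not shown, and its window holds none of the 6 words.
rpl-3, chrIII:3867511-3867611, plus strand: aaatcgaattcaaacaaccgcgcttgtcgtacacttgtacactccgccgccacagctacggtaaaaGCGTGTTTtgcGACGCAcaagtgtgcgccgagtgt
cdc-48.1, chrII:10563512-10563612, minus strand: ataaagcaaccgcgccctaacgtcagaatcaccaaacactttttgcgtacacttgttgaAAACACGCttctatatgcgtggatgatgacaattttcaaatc
rpl-35, chrIII:7854626-7854726, plus strand: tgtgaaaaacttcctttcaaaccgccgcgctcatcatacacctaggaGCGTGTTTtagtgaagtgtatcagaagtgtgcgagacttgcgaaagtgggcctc
cox-5A, chrIII:12905158-12905258, plus strand: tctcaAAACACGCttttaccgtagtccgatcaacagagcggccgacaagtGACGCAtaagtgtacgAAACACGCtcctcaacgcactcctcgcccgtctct
All 4 windows hold AAACACGC or its reverse complement, and cox-5A holds it at 2 places. Windows of further peaks show the other words, each at the strongest peak not yet shown that holds it, within the same limit.
tos-1, chrV:9344227-9344327, minus strand: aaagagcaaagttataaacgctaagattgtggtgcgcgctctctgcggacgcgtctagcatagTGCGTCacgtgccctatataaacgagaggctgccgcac
C47E8.4, chrV:14685724-14685824, minus strand: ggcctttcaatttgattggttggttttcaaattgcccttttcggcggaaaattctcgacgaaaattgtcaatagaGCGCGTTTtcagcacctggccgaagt
dnj-9, chrII:4851755-4851855, plus strand: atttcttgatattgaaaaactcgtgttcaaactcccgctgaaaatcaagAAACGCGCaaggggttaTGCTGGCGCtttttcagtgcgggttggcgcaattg
sec-61.G, chrV:10897286-10897386, minus strand: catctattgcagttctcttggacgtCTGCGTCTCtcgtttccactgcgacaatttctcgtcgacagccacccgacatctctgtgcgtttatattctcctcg
ddp-1, chrIII:1859707-1859807, plus strand: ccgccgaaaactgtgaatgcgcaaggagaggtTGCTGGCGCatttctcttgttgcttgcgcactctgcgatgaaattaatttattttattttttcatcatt
serp-1.1, chrX:15841235-15841335, plus strand: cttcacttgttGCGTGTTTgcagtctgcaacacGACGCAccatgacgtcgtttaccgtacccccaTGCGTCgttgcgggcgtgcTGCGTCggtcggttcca

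The 20 strongest of the one-gene promoter peaks stood at genes of many kinds and are given here by what the genes encode, not by rank. Among nuclear peaks that of rpl-3, a gene of the large ribosomal subunit, had rank 1 in replicate 1 and rank 2 in replicate 2 (summit 293 bp upstream of the start). The peak at cdc-48.1, the gene of an ATPase that extracts ubiquitinated proteins, ranked 22 in replicate 1 and 14 in replicate 2 (signal 317, 155 bp upstream). The peak at rpl-35, another gene of the large ribosomal subunit, ranked 17 in replicate 1 and 25 in replicate 2 and lay farther out, at 458 bp upstream. Both replicates thus placed these 3 peaks near the top of their lists.

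The 20 strongest also held genes of respiration, folding and secretion. The peak at cox-5A, which encodes a cytochrome c oxidase subunit, ranked 39 in replicate 1 and 32 in replicate 2, and that at cox-5B, a gene of the same enzyme, 97 in replicate 1 and 95 in replicate 2. Their positions differed, at 283 bp upstream for cox-5A and 28 bp upstream for cox-5B. The peak at hsp-1, the gene of a constitutive HSP70 chaperone, ranked 42 in replicate 1 and 50 in replicate 2, at 373 bp upstream. The peak at bag-1, which encodes a co-chaperone of HSP70, ranked 153 in replicate 1 and 124 in replicate 2. The peak at sec-61.G, which encodes a subunit of the channel that carries proteins into the endoplasmic reticulum, ranked 116 in replicate 1 and 84 in replicate 2 (signal 185).

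The genes pcn-1, puf-9, epn-1 and pro-1 were among the 20 as well. The peak at pcn-1, which encodes the sliding clamp of DNA replication, ranked 106 in replicate 1 and 125 in replicate 2, and its summit lay 264 bp upstream of the start in replicate 1 and 211 bp upstream in replicate 2. The peak at puf-9, the gene of a Pumilio family RNA-binding protein, ranked 149 in replicate 1 and 91 in replicate 2. The peak at epn-1, the gene of the endocytic adaptor epsin, ranked 66 in replicate 1 and 232 in replicate 2, so its place differed more between the lists. The peak at pro-1, which encodes a WD-repeat protein of ribosomal RNA processing, ranked 64 in replicate 1 and 80 in replicate 2.

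The rest of the 20 strongest are given no role beyond their names, and kin-14 (signal 297) and tos-1 (230) were among the highest of all. The peak at kin-14, named as a kinase gene, ranked 26 in replicate 1 and 12 in replicate 2, and that at tos-1 ranked 47 in replicate 1 and 38 in replicate 2. For kel-3 the peak was at place 68 in replicate 1 and place 35 in replicate 2, and that at serp-1.1 ranked 74 in replicate 1 and 70 in replicate 2. All 4 were among the strongest in both lists. W04C9.4 (ranks 50 in replicate 1 and 175 in replicate 2), C47E8.4 (44 in replicate 1 and 164 in replicate 2) and T13C5.6 (46 in replicate 1 and 199 in replicate 2) stood higher in replicate 1. The peak at Y71F9AL.8, with its summit in a coding exon 46 bp downstream of the start, stood higher in replicate 2, with rank 202 in replicate 1 and 65 in replicate 2.

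Over all one-gene promoter peaks the median signal was 65.5 (quartiles 55.2 and 85.5), against 66.1 over the 3000 peaks. The authors' thresholded set held 158 of them (23.2%), and the same set held 24.4% of the 3000. The weakest peak kept was that of zip-11, a bZIP transcription factor gene (signal 49.7), and the next peak below that met the position rule was that of C06A6.4, also 49.7. At the upstream border par-5, a 14-3-3 protein gene, was inside at 498 bp, while the strong peak of K12H4.5 (signal 242) was outside at 501 bp. At the downstream border vit-2, a yolk protein gene, was inside at 196 bp (signal 100.01), and rmd-2 was outside at 201 bp.

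The rule sets the limits of the window but not where summits lie within it. The window reaches 500 bp upstream but only 200 bp downstream. Summits spread evenly over it would therefore also lie mostly upstream, with a median and an upstream share close to those found. The median signed distance of the summit from the start was -147.5 bp, where a negative value means upstream (quartiles -279.25 and 3 bp). Upstream summits numbered 506 (74.4%), and 174 lay downstream. Matched to the summits of each replicate, the medians were -154.5 bp in replicate 1 (676 peaks matched) and -151 bp in replicate 2 (648 matched). The summits of the 2 replicates lay a median of 45 bp apart (quartiles 20 and 95.25 bp, 644 peaks matched in both). The fullest 100 bp were those between 100 and 200 bp upstream, with 146 peaks (21.5%), against 60 peaks between 400 and 500 bp upstream and 70 at 100 to 200 bp downstream. Among the 100 strongest, 84 were upstream, with a median of -166 bp.

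**Figure D1:**
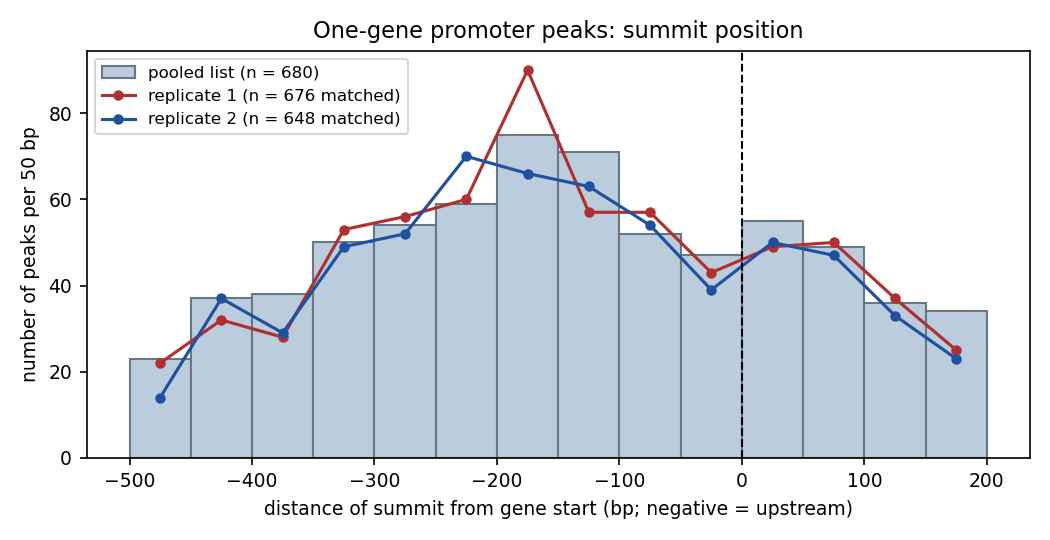
Number of one-gene promoter peaks per 50 bp (vertical axis) by signed distance of the summit from the gene start in bp (horizontal axis), with bars for the pooled list and lines for the matched summits of replicate 1 and replicate 2 that fall within the window. All 3 run highest between about 100 and 250 bp upstream, and the pooled median is -147.5 bp.

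Among the 100 strongest, hsp-3, which encodes an HSP70 chaperone of the endoplasmic reticulum, had the summit closest to its start, at 6 bp upstream, and ranked 171 in replicate 1 and 153 in replicate 2. Y39E4B.6 (12 bp downstream), W09D10.5 (12 bp upstream), Y39B6A.43 (16 bp upstream) and rpi-2 (27 bp upstream) came next. In W09D10.5 the replicates disagreed, with the summit 161 bp downstream in replicate 1 and 12 bp upstream in replicate 2. The farthest was eel-1, the gene of a HECT ubiquitin ligase, at 470 bp upstream in the pooled list, 444 bp in replicate 1 and 389 bp in replicate 2. It was followed by rps-28 of the small ribosomal subunit (469 bp), rpl-35 and vig-1 (both 458 bp) and Y17G7B.20 (442 bp).

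Most summits, 444 (65.3%), lay between protein-coding genes. In the gene's own body, 100 lay in a coding exon and 65 outside coding exons. Another gene held 56 outside its coding exons and 7 inside, and 8 summits lay in both the own and another gene. The peaks were nearly all of 1 width, with 650 of them (95.6%) spanning 460 bp, and their summits lay in the middle.

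For 34 genes there were 2 peaks, with summits 199 to 255 bp apart (median 206 bp). The strongest were kin-14, with signals of 297 at 64 bp upstream and 60.3 at 265 bp upstream, and tos-1, with 230 at 74 bp upstream and 75.8 at 275 bp upstream. The pair at kel-3 had signals of 210 at 140 bp upstream and 110 at 61 bp downstream. pro-1 (194 and 72.1) and mog-4, which encodes an RNA helicase of splicing (162 and 93.9), made up the 5 strongest. In each of these 5 genes the deposited intervals of the 2 peaks overlapped, and in kin-14 they were the same interval with 2 summits. Summits this close can match the same peak of a replicate, so their ranks are not independent: both peaks of mog-4 matched rank 157 in replicate 1 and rank 116 in replicate 2.

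The gap to the next gene upstream was set against the presence of a peak. Of the 16434 genes without a divergent start within 1000 bp, 636 (3.87%) had a one-gene promoter peak. Of the 3496 of these whose upstream neighbour was on the same strand less than 500 bp away, 300 (8.58%, 7.70 to 9.56) had one, against 155 of 6624 (2.34%, 2.00 to 2.73) where the gap was 500 bp or more. In the list of replicate 1 the shares were 7.87% against 2.29%, and in that of replicate 2 they were 8.18% against 1.81%, so the order was the same in each list. Genes with an upstream neighbour on the opposite strand stood at 2.75%, and those that start inside another gene at 3.32%. The split followed from seeing the values and was not tested.

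**Figure D2:**
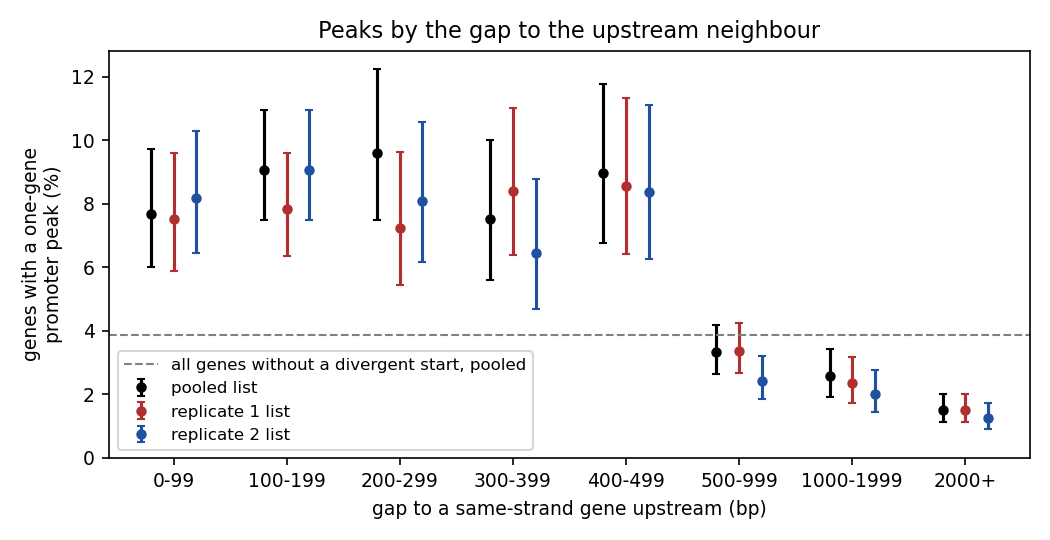
Percent of genes with a one-gene promoter peak (vertical axis) by the gap in bp to a same-strand gene upstream (horizontal axis), among genes without a divergent start within 1000 bp; points are the pooled, replicate 1 and replicate 2 lists, bars are 95% Wilson intervals that cover counting error only, and the dashed line is the pooled share of all such genes (3.87%). The pooled share is 7.51% to 9.61% in the 5 bins below 500 bp, 3.32% from 500 bp to below 1000 bp and 1.504% at 2000 bp or more.

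With a close same-strand neighbour, 195 peaks lay upstream of the start, 166 of them between both genes and 29 over the upstream gene. Their summits lay a median of 161 bp before the start and 112 bp past the end of the upstream gene, so the start of one gene and the end of the other cannot be told apart as the place of the signal. Of these, 52.3% were among the 3000 strongest peaks of both replicates, against 42.3% of the 149 upstream peaks with a same-strand neighbour farther off. Over all one-gene promoter peaks it was 45.7%. The median signal also differed, at 69.4 with a close neighbour against 61.9 with one farther off, and this share rises with pooled signal. The strongest examples were W04C9.4, which lay 147 bp past the upstream gene's end, T13C5.6 at 287 bp and pro-1 at 251 bp past it. Further examples were bag-1 (131 bp past the end) and ddp-1, which encodes a chaperone of mitochondrial import (154 bp). The J-domain co-chaperone gene dnj-9 (143 bp) and eif-3.C of translation initiation factor 3 (168 bp) were also among them.

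The ends of genes were counted the same way for other classes of the 3000 peaks. Of the one-gene promoter peaks, 220 (32.4%, 28.9 to 35.96) had their summit within 200 bp past the nearest gene end, against 1 of 174 peaks between divergent starts (0.575%). Among the 1658 peaks in no promoter window it was 291 (17.6%). The rule for divergent starts bears on this count, since no gene ends between them unless another gene lies there.

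Ranks in the 2 replicates were compared for every one-gene promoter peak by taking the strongest peak of the replicate with a summit within 200 bp. A match was found for 676 in replicate 1 and 648 in replicate 2. Of the one-gene promoter peaks 521 (76.6%) reached the 3000 strongest of replicate 1, against 76.8% of all 3000 pooled peaks. For replicate 2 the number was 416 (61.2%), against 63.1%. Both lists placed 311 that high (45.7%, 42.03 to 49.5), against 46.9%, so the shares were near those of all 3000 peaks. The pooled list was made from both replicates, so these shares describe agreement and do not test it. The ranks of the 644 matched in both had a Spearman rho of 0.33, against 0.35 over the 2795 matched of all 3000. The points share the reads behind the pooled list.

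The share among the 3000 strongest of both replicates rose with pooled signal. Both replicates set that signal, so the rise is largely built in and does not test agreement. Of the 170 strongest one-gene promoter peaks, 161 (94.7%) were among the 3000 strongest of both replicates. The next 170 held 107 (62.9%), the third 170 held 38 (22.4%) and the weakest 170 held 5 (2.94%). Among all of them, 210 reached the 3000 strongest in replicate 1 alone, 105 in replicate 2 alone and 54 in neither. The Spearman rho of the ranks was not taken over the weaker peaks alone, so its change with signal was not measured. It was 0.35 over the 332 matched in both among the strongest 340, and 0.33 over all 644 matched, which include them. The cut by pooled signal, which both replicates set, bears on both values.

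**Figure D3:**
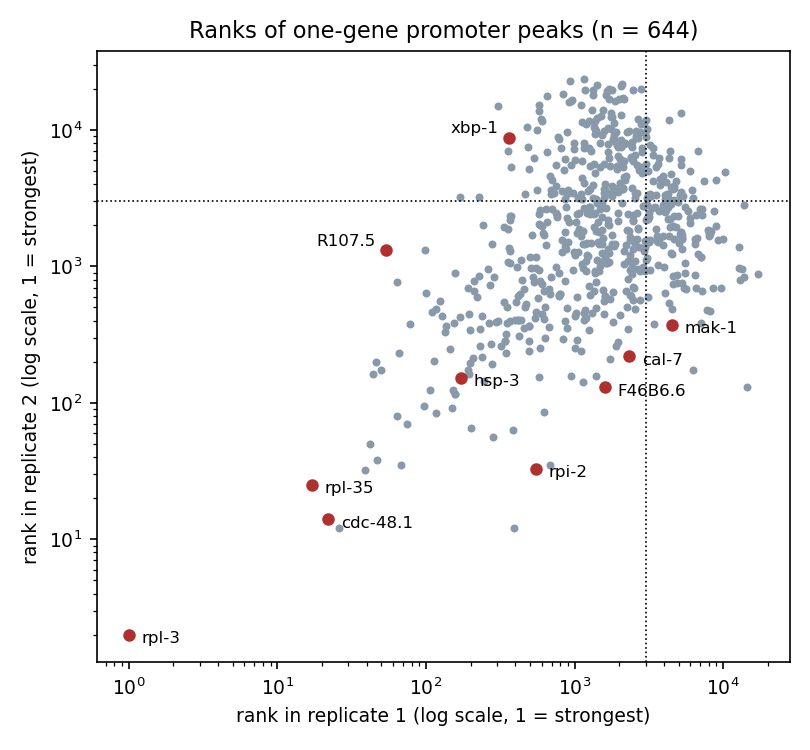
Rank in replicate 1 (horizontal axis) against rank in replicate 2 (vertical axis), both on log scales with 1 the strongest, for the 644 one-gene promoter peaks matched in both; dotted lines mark rank 3000 and red points are genes named beside them. The points lie close together at the strong end, where rpl-3 ranks 1 and 2, and spread widely past rank 1000.

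Single genes departed far from the common order. The peak at rpi-2 ranked 551 in replicate 1 and 33 in replicate 2, and that at mak-1, the gene of a MAPK-activated kinase, 4514 in replicate 1 and 375 in replicate 2. F46B6.6 (1598 in replicate 1 and 130 in replicate 2) and cal-7 (2334 in replicate 1 and 219 in replicate 2) also stood higher in replicate 2. So did the weaker kel-3 peak (686 and 35), which in replicate 2 was matched to the summit of the stronger one. In the other direction, xbp-1, which encodes a transcription factor of the unfolded protein response, ranked 360 in replicate 1 and 8793 in replicate 2. The peak at R107.5 ranked 54 in replicate 1 and 1326 in replicate 2. The peak at epg-8, an autophagy gene, ranked 572 in replicate 1 and 15330 in replicate 2. Weak places in replicate 2 were also seen for F53A3.7 (306 in replicate 1 and 14904 in replicate 2) and F55H12.2 (649 in replicate 1 and 17886 in replicate 2). The strongest peak missing from a replicate was that of H37A05.4, at rank 145 in replicate 1 and with no summit within 200 bp in replicate 2. A second, weaker peak of the same gene, 394 bp upstream (signal 79.9), was matched in both replicates.

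Gene functions were described through 19 groups of gene names, with the share of each group's genes that had a one-gene promoter peak. Over all 19973 nuclear protein-coding genes that share was 3.23%. The 19 groups together held 121 of the 646 genes and 126 of the peaks, so most peaks, 554, stood at genes of no group. Vacuolar ATPase genes, whose enzyme acidifies organelles, had 4 of 21 (19.05%, 7.67 to 40.001). Cytosolic ribosomal protein genes had 12 of 81 (14.8%, 8.68 to 24.1), oxidative phosphorylation genes 8 of 55 (14.5%, 7.56 to 26.2) and mitochondrial ribosomal protein genes 8 of 70 (11.4%, 5.91 to 20.96). Chromatin regulators had 13 of 127 (10.2%), secretion genes 7 of 73 (9.59%) and chaperones 6 of 68 (8.82%). The groups were chosen with earlier results of these data known, and no group was tested.

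**Figure D4:**
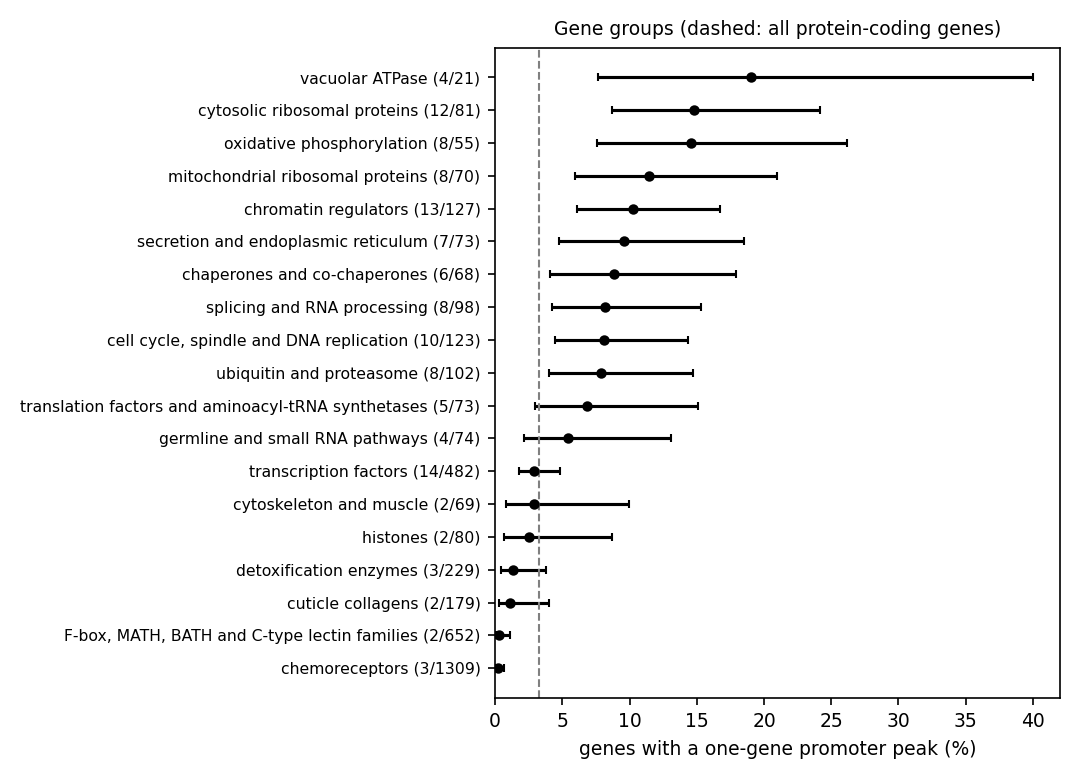
Percent of the genes of each group with a one-gene promoter peak (horizontal axis) with 95% Wilson intervals that cover counting error only; the numbers beside each name are genes with a peak and genes in the group, and the dashed line is the share over all protein-coding genes (3.23%). Vacuolar ATPase and ribosomal protein genes are at the top, and chemoreceptor genes at the bottom with 3 of 1309.

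The 12 peaks at cytosolic ribosomal protein genes had a median distance of -317 bp and ran between -469 bp (rps-28) and 69 bp (rps-16). The 8 at mitochondrial ribosomal protein genes had a median of -25 bp and ran between -462 bp (mrps-12) and 83 bp (mrps-33), so the ranges overlapped. In the list of replicate 2 alone the mitochondrial group had 4 genes with a peak in place of 8. After rpl-3 and rpl-35 the cytosolic group was led by rps-28 (ranks 210 in replicate 1 and 665 in replicate 2) and rps-24 (418 in replicate 1 and 610 in replicate 2). Others were seen mainly in 1 replicate, such as rps-16, which ranked 913 in replicate 1 and 15939 in replicate 2. Of the 12, 7 were among the 3000 strongest of both replicates, against 2 of the 8 mitochondrial ones. Over all one-gene promoter peaks that share was 45.7%, and it rose with pooled signal. The median signal was 80.4 for the 12, against 65.5 over all one-gene promoter peaks, and slightly below the latter for the 8. Whether the groups differed in agreement between replicates was not tested. The strongest mitochondrial one, mrps-35, ranked 722 in replicate 1 and 3477 in replicate 2.

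The 4 vacuolar ATPase peaks were all among the 3000 strongest of both replicates when summits were matched within 200 bp. Over all one-gene promoter peaks that share was 45.7%, and the median signal was 65.5, against 81.3 for these 4. They stood at vha-2, which encodes a subunit of the membrane ring (ranks 574 in replicate 1 and 154 in replicate 2), and at vha-12 (1251 in replicate 1 and 340 in replicate 2). The other two were those of vha-20 (1645 in replicate 1 and 1053 in replicate 2) and vha-13 (1811 in replicate 1 and 394 in replicate 2). All 4 stood higher in replicate 2, but the summit matched to vha-13 there lay 607 bp upstream of the start, outside the promoter window, against 429 bp in the pooled list. Besides both cytochrome c oxidase genes, oxidative phosphorylation included nduf-11 of complex I (583 in replicate 1 and 777 in replicate 2) and cox-15, whose product makes the haem of cytochrome c oxidase (855 in replicate 1 and 1796 in replicate 2).

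Groups of translation, protein turnover, RNA processing and secretion also stood above the share over all genes. Translation factors and aminoacyl-tRNA synthetases had 5 of 73 genes (6.85%, 2.96 to 15.1), an interval that holds the 3.23% of all genes. In the list of replicate 2 alone this group had 2 genes with a peak. It was led by eif-3.C (ranks 129 in replicate 1 and 431 in replicate 2) and fars-3, a phenylalanyl-tRNA synthetase gene (1146 in replicate 1 and 143 in replicate 2). Ubiquitin and proteasome genes had 8 of 102 (7.84%), with cdc-48.1 first. The ubiquitin-like gene ubl-5 ranked 169 in replicate 1 and 423 in replicate 2, and ufd-3, the gene of a CDC-48 cofactor, 294 in replicate 1 and 389 in replicate 2. Splicing and RNA processing genes had 8 of 98 (8.16%), with mog-4 highest and lsm-6 at rank 98 in replicate 1 and 1310 in replicate 2. The secretion group held, after sec-61.G, the exocyst genes sec-3 (558 in replicate 1 and 3650 in replicate 2) and sec-10 (2276 in replicate 1 and 814 in replicate 2). It also held sar-1, the gene of the GTPase of COPII vesicles (1350 in replicate 1 and 2429 in replicate 2).

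Among chromatin regulators the strongest peak was that of bet-2, a bromodomain protein gene, with ranks of 199 in replicate 1 and 342 in replicate 2. It was followed by lin-9 (212 in replicate 1 and 788 in replicate 2) and met-1, the gene of a histone H3 methyltransferase (405 in replicate 1 and 548 in replicate 2). Next came lin-52 (857 in replicate 1 and 395 in replicate 2), which like lin-9 belongs to the DREAM complex, a repressor of cell cycle and germline genes. Cell cycle, spindle and replication genes had 10 of 123 (8.13%), with knl-3 of the kinetochore (884 in replicate 1 and 496 in replicate 2) and the spindle checkpoint gene mdf-1 (1884 in replicate 1 and 259 in replicate 2) after pcn-1. Germline and small RNA genes had 4 of 74 (5.41%, 2.12 to 13.1), an interval that holds the 3.23% of all genes. Among them was ego-1, which encodes an RNA-dependent RNA polymerase (100 in replicate 1 and 642 in replicate 2).

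Other groups stood near or below the share over all genes. Transcription factor genes had 14 of 482 (2.90%), led by ztf-7 (155 in replicate 1 and 388 in replicate 2) and zfp-3 (264 in replicate 1 and 382 in replicate 2). nhr-49, a nuclear receptor gene of fat metabolism, ranked 582 in replicate 1 and 2009 in replicate 2. Cytoskeleton and muscle genes had 2 of 69 (2.90%), namely tba-2 of alpha tubulin (493 in replicate 1 and 239 in replicate 2) and act-2 of actin (1353 in replicate 1 and 657 in replicate 2). Histone genes had 2 of 80 (2.50%), of which his-37 ranked 192 in replicate 1 and 173 in replicate 2. Detoxification enzymes had 3 of 229 (1.31%) and cuticle collagens 2 of 179 (1.12%).

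Families that are large in nematodes had very few. F-box, MATH, BATH and C-type lectin genes had 2 of 652 (0.307%), although fbxb-72 was strong in both, at rank 208 in replicate 1 and 214 in replicate 2. Chemoreceptor genes had 3 of 1309 (0.229%, 0.0780 to 0.672), the strongest being sri-18 at rank 774 in replicate 1 and 8847 in replicate 2. None of the 3 was among the 3000 strongest of both replicates. Genes with a class name of letters and a number made up 433 of the 646 (67.0%, 63.3 to 70.5), against 54.6% of all protein-coding genes.

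By chromosome, X held 84 of the one-gene promoter peaks (12.4%, 10.1 to 15.04), against 18.1% of the 3000. The 3000 include 468 peaks at short RNA genes, which the rule drops and of which 37.2% lay on X. Among the 1658 peaks in no promoter window X held 16.9%. Of the 174 peaks between divergent starts it held 4 (2.30%, 0.898 to 5.76). In lists drawn from each replicate alone the X share of one-gene promoter peaks was 11.8% in replicate 1 and 12.1% in replicate 2, and 13.7% of protein-coding genes lie on X. Chromosome V held 16.9% of these peaks and 25.004% of the genes. On X 74 of 84 summits were upstream of the start, with a median of -178 bp, against 432 of 596 with a median of -143.5 bp on the autosomes. Such X peaks included serp-1.1, epn-1, puf-9 and bet-2.

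The base composition changed sharply at the summit. Windows of 50 bp to either side of the summits of one-gene promoter peaks held 42.5% ± 10.2 G+C (SD over 680 windows), against 36.1% ± 8.52 in windows 300 bp to either side. The same windows centred 150 bp upstream of all 19973 starts held 34.2% ± 8.33. Other classes of the 3000 peaks had a higher value at the summit than 300 bp away too. Peaks between divergent starts averaged 45.5% at the summit and 35.8% at 300 bp, those at short RNA genes 46.8% and 36.2%, and those in no promoter window 42.3% and 36.9%. One-gene promoter peaks drawn from each replicate alone averaged 41.9% in replicate 1 and 40.7% in replicate 2. The strongest 170 peaks averaged 45.9% and the weakest 170 averaged 40.05%. The share of reads that a window of given composition yields was not measured here, so its part in the signal was not tested.

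**Figure D5:**
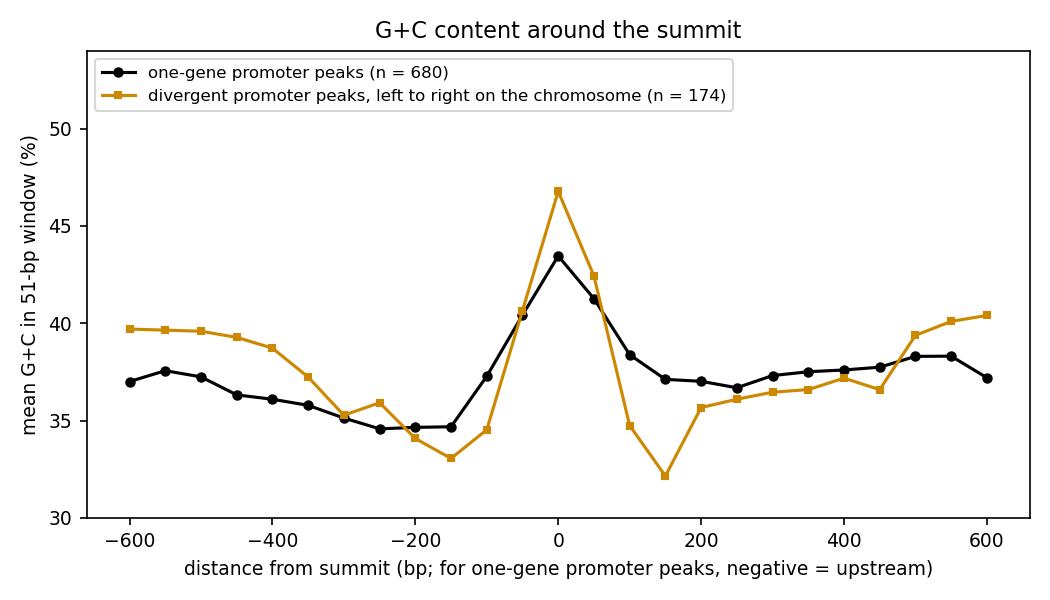
Mean G+C in 51-bp windows in percent (vertical axis, which starts at 30%) by distance from the summit in bp (horizontal axis), for one-gene promoter peaks on the strand of the gene and for peaks between divergent starts left to right on the chromosome. The one-gene promoter peaks reach 43.5% at the summit and 34.7% at 150 bp upstream of it.

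Short motifs were searched on both strands within 50 bp of the summit. GAGAGA, a GA-rich element of many worm promoters, was found at 107 of the 680 (15.7%, 13.2 to 18.7), against 7.35% of windows 300 bp away and 8.42% of all promoters. The rest of the 3000 peaks held it in 14.7%. Upstream summits held it in 18.2% and downstream summits in 8.62%, and it stood at kin-14, hsp-1, T13C5.6, sec-61.G and puf-9 among the 20 strongest. AT-rich motifs were rarer at the summits than in all promoters. TTTGAA was found in 19.9% against 29.6%, the GATA site TGATAA in 6.03% against 11.8%, TATAAA in 10% against 13.4% and a run of 8 T in 5.15% against 13.4%. The rest of the 3000 peaks were also below all promoters, so this was not particular to one-gene promoter peaks. They held TTTGAA in 17.6%, TGATAA in 7.41%, TATAAA in 8.92% and the run of T in 7.03%. In the list of replicate 2 alone the shares were higher for TTTGAA (23.5%), TATAAA (12.6%) and the run of T (7.95%). The tRNA promoter core GGTTCGA was found in 0.588%, against 6.29% of the other peaks of the 3000, which include those at tRNA genes.

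The 6 words marked in the sequences were picked because they were more frequent at these summits than 300 bp away, so their shares are a description. The contrast with windows 300 bp away was set by that choice and is no independent background. GACGCA was found at 68 (10%), against 1.62% of windows 300 bp away and 3.43% of all promoters. ACGCGC was found at 65 (9.56%), against 1.32% and 2.54% in the same order, and its longer form AAACGCGC, which contains it, at 30 (4.41%), against 0.294% and 0.621%. CTGCGTCTC, which overlaps the reverse complement of GACGCA, was found at 25 (3.68%), against 0.441% of windows 300 bp away and 1.25% of all promoters. GCGCCAGCA was found at 18 (2.65%), against 0 of 1360 windows 300 bp away, which allows a share of up to 0.221% (3 counts), and 0.185% of all promoters. AAACACGC was found at 15 (2.21%), of which 5 were among the 20 strongest, at rpl-3, cdc-48.1, rpl-35, cox-5A and serp-1.1. It was found in 0.486% of all promoters. Other peaks held the words too. Between divergent starts GACGCA and ACGCGC were each at 14.4% of the 174 peaks, CTGCGTCTC at 5.17%, GCGCCAGCA and AAACGCGC each at 3.45% and AAACACGC at 2.30%. Over all 2320 peaks outside the one-gene promoter class, divergent ones included, the shares were 6.94% for GACGCA, 5.13% for ACGCGC, 3.36% for CTGCGTCTC, 0.819% for AAACACGC, 0.776% for AAACGCGC and 0.474% for GCGCCAGCA. In the list of replicate 2 alone the share of one-gene promoter peaks was 2.98% for AAACGCGC and 1.49% for GCGCCAGCA.

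At least 1 of the 6 words stood at 12 of the 20 strongest one-gene promoter peaks, 40 of the 100 strongest and 136 of all 680 (20%). The weakest 170 held 18 (10.6%). Upstream summits had a word in 122 of 506 cases (24.1%) and downstream summits in 14 of 174 (8.05%). Peaks between divergent starts had a word in 50 of 174 cases (28.7%), and the 2320 peaks outside the one-gene promoter class in 286 (12.3%). The same count was 46 of 1360 (3.38%) at 300 bp from the summits, in the windows used to pick the words, and 1240 of 19973 (6.21%) over all promoters. The words are rich in C and G, as the summits are, and the part of base composition in these shares was not tested.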

How the data were processed

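ChIP-seq peaks of GFP-tagged ZNF-207 were taken from 2 replicates, 1 group, as the authors deposited them. Per the deposited notes, each replicate list was prepared for IDR (irreproducible discovery rate), a procedure that keeps peaks ranking alike in replicates, and was derived from that replicate's alignments and a further file also listed for the control-normalized tracks. The pooled list came from both replicates, and the thresholded list (750 peaks) is the IDR output. Which aligner and peak caller made them is not given in the sources used here. Signal values are the authors' own, deposited on a scale not given in the sources used here, so replicates were compared by rank among nuclear peaks. The deposited summit offset gave each summit's position.

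Starts were the outermost starts of protein-coding genes in Ensembl release 115 (WBcel235), and no pooled summit lay beyond its chromosome's end. Replicate summits were matched within 200 bp, taking the strongest. Wilson intervals are at the 95% level. The replicates make 1 group and the members were chosen by signal, so no tests were run. Scripts used Python 3.11.15, pandas 2.3.3, numpy 2.4.6, SciPy 1.17.1 and matplotlib 3.10.9, and were tested on simulated summits and words with known answers. The named genes are the 20 strongest peaks, up to 4 of the strongest per group, the 5 strongest genes with 2 peaks, the 5 of the strongest 340 whose ranks differ most in each direction, and the 5 nearest and 5 farthest of the strongest 100. Genes at the borders of the rule, H37A05.4, the examples beside close neighbours and rps-16 were named after their values were seen. Members, gene groups and motifs were chosen with earlier results of these data known. The ce10 lists were not used here.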

Additional observations from a re-analysis of the deposited data

How the results depend on the processing

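Taking fewer peaks lowered the number of one-gene promoter peaks to 162 (750 strongest) and 334 (1500 strongest), and that at genes of the 19 groups to 42 and 72. It raised the share among the 3000 strongest of both replicates to 95.7% and 78.4%. A window of 200 bp upstream to 100 bp downstream gave 357 peaks, 54 at group genes and a median of -69 bp, and one of 1000 bp upstream to 200 bp downstream a median of -216 bp. These medians follow from the windows. Matching summits within 100 bp or 50 bp gave shares of 36.3% and 26.9% in both replicates. Lists of 1 replicate gave shares of 48.06% to 53.5% and medians of -155 to -127.5 bp. Peaks of such a list are among the 3000 strongest of their own replicate by choice. These shares therefore count only a place in the other replicate and are not like the share in both. GAGAGA was found in 9.12% within 25 bp and 24.6% within 100 bp, and in 11.9% to 13.2% with 1 replicate. GACGCA was found in 5.74% within 25 bp, 17.1% within 100 bp and 16.05% of the peaks among the 750 strongest. For the same-strand gaps, alternatives added after seeing the data gave 2.09% below 500 bp against 0.483% above (750 strongest), 4.41% against 1.07% (1500 strongest), 5.52% against 0.981% (narrower window) and, with 1 replicate, 7.87% to 8.18% against 1.81% to 2.29%. Of the recomputed main values 57 stayed within the interval, the spread of the replicates or 1.5 times (for counts), and 27 did not. A turn of direction was looked for only in the median distance. None was seen there, but windows that lie mostly upstream largely fix that outcome. Of the counts for single gene groups and the shares of the other motifs, 220 stayed within these limits and 110 did not. Without replicate 1 the counts of 6 of the 19 gene groups moved by over 1.5 times (mitochondrial ribosomal proteins to 4, translation to 2, histones to 1, cytoskeleton to 4, detoxification to 5, F-box and related families to 4), and 7 of the other motif shares left their interval. Without replicate 2 it was 3 groups (histones and F-box families to 1, collagens to 0), and 17 of the motif shares stayed within it. No paired analysis was possible because the replicates form 1 group. Depth is unknown, and without a control the signal of untagged animals is not analysed here.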
